A study of Homo sapiens with 9 samples.

Results

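The 6 genes described here are IFI6, IFI27, IFI27L1, IFI27L2, IFI44 and IFI44L, out of 43395 gene names on the array, and each was read by 1 probe. They were chosen by gene name with their signals and their differences in all 3 comparisons between the lines already known. Their values are therefore a description of these arrays, and no p-value is given for them.

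Type I interferons bind a surface receptor whose kinases activate a transcription complex that includes STAT2 and IRF9, and this complex binds interferon-stimulated response elements near the genes it switches on. IFI6, IFI27, IFI27L1 and IFI27L2 belong to a family of small hydrophobic proteins that includes mitochondrial and endoplasmic reticulum proteins linked to the control of apoptosis. IFI44 and its neighbor IFI44L form a separate pair of cytoplasmic proteins, and genes of both groups are part of the interferon-related signatures described in tumors.

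The study placed forms of PTH-AS, a long noncoding RNA transcribed near the parathyroid hormone gene, in T47D, an established luminal breast cancer cell line, and asked how gene expression changed. RNA was measured on 9 single-color microarrays, 3 for each of 3 stable lines. T47D-VC1 carried the empty vector, T47D-PA5 an incomplete PTH-AS and T47D-PA6 the full-length PTH-AS, and all 3 had been selected with G418. In the study the incomplete form served as a negative control, and genes that also changed in T47D-PA5 were set aside as nonspecific. Each group was 1 selected line, and the sources do not state whether its replicates were separate cultures, so the spread between arrays may be technical. In RNA from a whole culture, more expressing cells and more RNA per cell cannot be told apart.

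Signals are intensities from Feature Extraction, Agilent's image analysis software, after quantile normalization, line means are geometric means, and SDs are on the log2 scale with n = 3. Slide 1 held replicate 1 of each line and was scanned in an earlier run, and the second replicates of T47D-VC1 and T47D-PA5 were on slide 2, with the other 4 arrays on slide 3. Feature Extraction marked 44.0% to 48.0% of probes, depending on the array, as well above background, and the lowest such signal was 9.59 to 15.2. On each array 0 spots were marked as saturated. Markers of luminal breast epithelium were well above background on all 9 arrays for 9 of 9 genes, ESR1 and KRT19 among them. Of these markers, PGR had mean signals of 15100, 11600 and 7200 for T47D-VC1, T47D-PA5 and T47D-PA6.

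The stretches before the start sites of the 6 genes are shown because IFI27 lies between IFI27L1 and IFI27L2, and the signal of IFI27 moved between the lines far more than that of its neighbors. The sequences are from RefSeq on GRCh38.p14, which held all 6 genes, and each is the 250 bases before the start, 5′ to 3′ on the strand of the gene. Where 2 starts were listed, for IFI27 and IFI44, the upstream one is shown. Capitals mark matches to the core of the interferon-stimulated response element, TTTCNNTTTC, or GAAANNGAAA on the other strand. The stretch for IFI6 is chr1:27672193-27672442 on the minus strand, and that for IFI27 is chr14:94110486-94110735 on the plus strand.
IFI6: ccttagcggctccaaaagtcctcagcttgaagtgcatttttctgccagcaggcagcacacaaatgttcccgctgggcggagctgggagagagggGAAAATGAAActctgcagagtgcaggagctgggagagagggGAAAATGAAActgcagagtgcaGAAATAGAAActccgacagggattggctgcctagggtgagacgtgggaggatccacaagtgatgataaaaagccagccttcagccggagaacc
IFI27: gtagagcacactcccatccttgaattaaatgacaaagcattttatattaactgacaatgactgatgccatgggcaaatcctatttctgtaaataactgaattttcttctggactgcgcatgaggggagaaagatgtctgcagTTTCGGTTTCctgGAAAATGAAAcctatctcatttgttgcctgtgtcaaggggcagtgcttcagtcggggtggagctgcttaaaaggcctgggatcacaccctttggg
IFI44L is shown from chr1:78620198-78620447 and IFI44 from chr1:78649539-78649788, both on the plus strand.
IFI44L: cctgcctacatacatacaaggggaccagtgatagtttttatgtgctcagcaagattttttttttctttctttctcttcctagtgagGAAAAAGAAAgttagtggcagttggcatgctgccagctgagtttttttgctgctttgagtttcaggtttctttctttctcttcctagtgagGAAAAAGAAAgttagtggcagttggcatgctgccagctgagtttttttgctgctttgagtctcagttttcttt
IFI44: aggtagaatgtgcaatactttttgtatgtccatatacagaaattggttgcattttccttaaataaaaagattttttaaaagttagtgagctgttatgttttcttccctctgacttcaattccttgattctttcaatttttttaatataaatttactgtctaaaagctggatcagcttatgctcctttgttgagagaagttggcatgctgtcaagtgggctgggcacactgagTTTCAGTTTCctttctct
IFI27L1 is shown from chr14:94081060-94081309 on the plus strand and IFI27L2 from chr14:94129605-94129854 on the minus strand.
IFI27L1: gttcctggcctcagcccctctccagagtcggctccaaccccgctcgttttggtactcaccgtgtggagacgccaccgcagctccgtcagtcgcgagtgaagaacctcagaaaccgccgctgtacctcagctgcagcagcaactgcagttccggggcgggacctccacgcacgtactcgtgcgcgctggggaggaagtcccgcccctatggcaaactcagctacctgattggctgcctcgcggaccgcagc
IFI27L2: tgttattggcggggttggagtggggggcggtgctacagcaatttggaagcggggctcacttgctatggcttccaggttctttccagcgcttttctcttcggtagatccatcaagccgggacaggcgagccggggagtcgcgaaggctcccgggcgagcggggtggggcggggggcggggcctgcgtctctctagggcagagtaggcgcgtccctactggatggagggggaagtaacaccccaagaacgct

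The core was found 3 times before IFI6, 2 times before IFI27, 2 times before IFI44L and 1 time before IFI44, and 0 times before IFI27L1 and IFI27L2. Of 35116 promoters of 27305 genes searched over the same length, 3.02% held at least 1 match and 0.225% held 2 or more. In IFI6 a run of 29 bases occurred 2 times with its copies 41 bases apart, start to start, and each copy held 1 match. In IFI44L a run of 85 bases occurred 2 times, 91 bases apart, and each copy held 1 match. From the upstream starts, the match in IFI44 began 18 bases before the start site and those in IFI27 began 108 and 95 bases before it. From the second listed starts these distances were 60, 187 and 174 bases. The matches in IFI6 and IFI44L began from 73 to 164 bases before their only starts. The core of the gamma-activated sequence, TTCNNNGAA, which reads the same on both strands, was found 1 time before IFI27, where it overlapped both response element matches, and 0 times before the other 5 genes. It occurred in 6.57% of all promoters searched. These are matches of letters in a window, and binding was not measured.

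**Figure D1:**
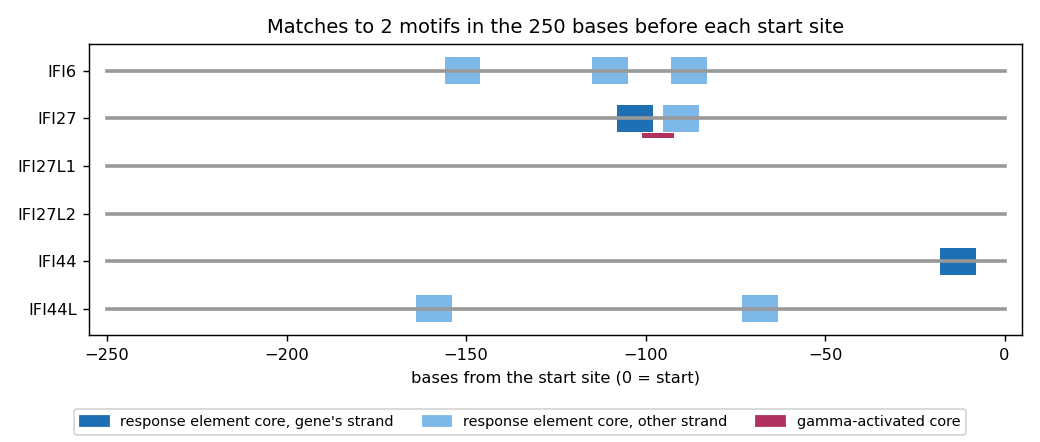
Each line is the 250 bases before the start site of a gene, with distance from the start in bases on the horizontal axis, and boxes are matches to the response element core or, below the line, the gamma-activated core. IFI6 holds 3 response element matches, IFI27 and IFI44L hold 2 each, IFI44 holds 1, and the lines of IFI27L1 and IFI27L2 are empty.

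IFI6, a small protein of the mitochondria and endoplasmic reticulum that opposes cell death, was lowest in T47D-VC1, intermediate in T47D-PA5 and highest in T47D-PA6. Its probe is at chr1:27992837-27992896 on the minus strand of hg19, the build that the files use. Its signal was 339, 528 and 369 on replicates 1, 2 and 3 of T47D-VC1, 1670, 9900 and 9000 on those of T47D-PA5, and 31500, 43200 and 47300 on those of T47D-PA6. The 3 lines did not overlap, and replicate 1 of T47D-PA5 lay far below the other T47D-PA5 arrays. Mean signals were 404 (SD 0.34), 5300 (SD 1.44) and 40100 (SD 0.31) across T47D-VC1, T47D-PA5 and T47D-PA6. IFI6 in T47D-PA6 was thus 99.1-fold over its level in T47D-VC1, a log2 difference of 6.63 with a standard error of 0.71 from the SD pooled over the lines. That pooled SD of 0.88 includes T47D-PA5, which spread the most. Between T47D-PA6 and T47D-VC1 arrays with the same replicate number the log2 difference was 6.54, 6.35 and 7 (SD 0.33, n = 3). T47D-PA5 was 13.1-fold above T47D-VC1 (log2 difference 3.71 ± 0.71, SE), and T47D-PA6 was 7.56-fold above T47D-PA5 (2.92 ± 0.71). Without replicate 1 of T47D-PA5 these log2 differences were 4.55 and 2.09. Between arrays with the same replicate number, T47D-PA6 exceeded T47D-PA5 by 4.24, 2.13 and 2.39 on the log2 scale (SD 1.15, n = 3).

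IFI27, a protein of the mitochondria and nuclear envelope that sensitizes cells to apoptosis, followed the same order. Its probe is at chr14:94582967-94583026 on the plus strand of hg19. It read 435, 449 and 253 on the 3 T47D-VC1 arrays, 1450, 12000 and 11000 on the T47D-PA5 arrays, and 58400, 54000 and 39300 on the T47D-PA6 arrays. Replicate 1 was again the low array of T47D-PA5, whereas in T47D-PA6 it was the highest of the 3. Mean signals were 367 (SD 0.47) in T47D-VC1, 5760 (SD 1.73) in T47D-PA5 and 49900 (SD 0.30) in T47D-PA6. The log2 difference of T47D-PA6 from T47D-VC1 was 7.09 ± 0.86 (SE), or 136-fold. Between arrays with the same replicate number it was 7.07, 6.91 and 7.28 (SD 0.18, n = 3). For T47D-PA5 over T47D-VC1 the log2 difference was 3.97 ± 0.86 (15.7-fold), and between T47D-PA6 and T47D-PA5 it was 3.11 ± 0.86 (8.66-fold). Leaving out T47D-PA5 replicate 1 gave 4.97 and 2.12. Between arrays with the same replicate number, T47D-PA6 exceeded T47D-PA5 by 5.34, 2.17 and 1.84 on the log2 scale (SD 1.93, n = 3).

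IFI27L1 and IFI27L2, the neighbors of IFI27 from the same family, were measured well above background in every array but moved little. IFI27L1 read 8340, 7810 and 7680 in T47D-VC1, 8370, 8590 and 8450 in T47D-PA5, and 11000, 9510 and 11200 in T47D-PA6. All T47D-PA6 arrays lay above the arrays of the other lines, while the lowest T47D-PA5 array lay just above the highest T47D-VC1 array. Mean signals were 7940 (SD 0.06), 8470 (SD 0.02) and 10500 (SD 0.13), so that T47D-PA6 was 1.33-fold above T47D-VC1 (log2 difference 0.41 ± 0.07, SE) and 1.24-fold above T47D-PA5 (0.32 ± 0.07). T47D-PA5 differed from T47D-VC1 by 0.09 ± 0.07 on the log2 scale.

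IFI27L2 read 19400, 20400 and 20100 in T47D-VC1, 17900, 25100 and 23600 in T47D-PA5, and 23400, 22100 and 24900 in T47D-PA6. T47D-PA6 lay above T47D-VC1 on every array, and the arrays of T47D-PA5 overlapped both other lines. Mean signals were 20000 (SD 0.04), 22000 (SD 0.26) and 23400 (SD 0.09), and the log2 differences were 0.23 ± 0.13 (SE) for T47D-PA6 and 0.14 ± 0.13 for T47D-PA5 over T47D-VC1. Between T47D-PA6 and T47D-VC1 arrays with the same replicate number the log2 difference was 0.27, 0.11 and 0.31 (SD 0.10, n = 3). T47D-PA6 and T47D-PA5 differed by 0.09 ± 0.13, less than the standard error, and the sign turned to -0.05 without replicate 1 of T47D-PA5. The probe of IFI27L1 spans chr14:94568310-94568870 in hg19, more than its 60 bases, and that of IFI27L2 is at chr14:94594158-94594217. No run longer than 8 bases was shared between any of the 15 pairs of the members' probes on either strand.

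IFI44, a cytoplasmic protein with antiproliferative activity, was well above background on 0 of the T47D-VC1 arrays. Its probe is at chr1:79128479-79128538 on the plus strand of hg19. It read 8.64, 2.55 and 2.54 in T47D-VC1, 23.4, 115 and 103 in T47D-PA5, and 642, 2870 and 2700 in T47D-PA6. Here replicate 1 was the low array in both T47D-PA5 and T47D-PA6. Mean signals were 65.2 (SD 1.28) in T47D-PA5 and 1710 (SD 1.22) in T47D-PA6, a log2 difference of 4.71 ± 0.96 (SE) or 26.2-fold. Between arrays with the same replicate number, which varied together in these lines, the log2 difference was 4.78, 4.64 and 4.72 (SD 0.07, n = 3). Leaving out 1 array, which breaks such a pair, gave 3.97 without T47D-PA5 replicate 1 and 5.42 without T47D-PA6 replicate 1. Against T47D-VC1 only a bound can be given, for which each T47D-VC1 array is given its smallest well-above-background signal, or the gene's signal if that was higher. IFI44 was at least 137-fold over T47D-VC1 in T47D-PA6 and at least 5.23-fold over it in T47D-PA5. On the log2 scale these bounds were 7.10 and 2.39, and they were 7.80 without T47D-PA6 replicate 1 and 3.12 without T47D-PA5 replicate 1. With normexp background correction, which lifts low signals, they were 4.79 and 0.97. That correction also lowered the log2 difference of IFI44 between T47D-PA6 and T47D-PA5, to 3.82.

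IFI44L, the paralog of IFI44 that binds FKBP5 and dampens interferon responses, was measured in T47D-PA6 alone, on 2 of its 3 arrays. The probe is at chr1:79107590-79107649 on the plus strand of hg19. It read 12.3, 141 and 153 on replicates 1, 2 and 3 of T47D-PA6, with replicate 1 not well above background. The T47D-VC1 arrays read 3.38, 3.50 and 3.31 and the T47D-PA5 arrays 3.68, 3.34 and 3.30, and 0 of these 6 was well above background. Since replicate 1 of T47D-PA6 was at background, no fold or bound holds over all 3 arrays of that line. On its replicates 2 and 3 alone IFI44L was at least 11.8-fold above T47D-VC1 and at least 11.3-fold above T47D-PA5. No fold can be given between T47D-PA5 and T47D-VC1.

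**Figure D2:**
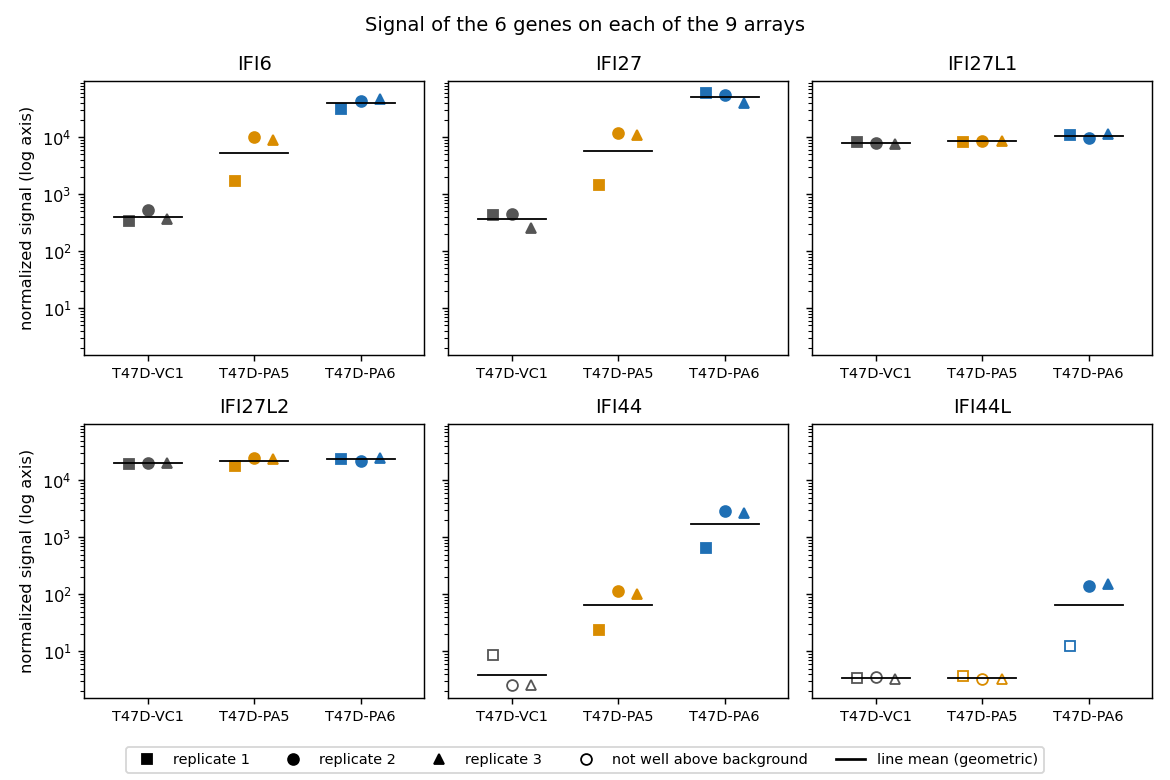
Normalized signal of each gene on a log axis, with the 9 arrays grouped by line, a marker shape for each replicate number, open markers where the probe was not well above background, and a bar at the geometric mean of the line. IFI6, IFI27 and IFI44 step up from T47D-VC1 to T47D-PA5 to T47D-PA6, IFI44L is above background on 2 T47D-PA6 arrays only, and IFI27L1 and IFI27L2 lie nearly level.

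Replicate 1, the array of the earlier scan run, stood apart in some genes and lines and not in others. In T47D-PA5 the mean of the 2 later arrays was 5.66-fold above the earlier one for IFI6, 7.95-fold for IFI27 and 4.64-fold for IFI44. In T47D-PA6 it was 1.44-fold for IFI6, 0.788-fold for IFI27 and 4.34-fold for IFI44. IFI44L was not well above background on the earlier T47D-PA6 array, and the mean of the later ones was 147. Over all 20092 tested genes, 2.17% in T47D-PA5 and 3.17% in T47D-PA6 were more than 2-fold higher on the later arrays. Scan run, slide and replicate number coincide for replicate 1, so their parts cannot be told apart.

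Within slide 1, which held 1 array of each line, T47D-PA6 exceeded T47D-VC1 by 6.54 for IFI6 and 7.07 for IFI27 on the log2 scale, and within slide 3 by 6.94 and 7.51. T47D-PA5 exceeded T47D-VC1 by 2.30 for IFI6 and 1.73 for IFI27 within slide 1, by 4.23 and 4.74 within slide 2, and by 4.61 and 5.44 within slide 3. The difference between T47D-PA6 and T47D-PA5 ran the other way, 4.24 and 5.34 within slide 1 against 2.33 and 2.06 within slide 3. For IFI44 that difference was 4.78 within slide 1 and 4.76 within slide 3. With the slide as a block the log2 differences of T47D-PA6 from T47D-VC1 were 6.79 for IFI6 and 7.34 for IFI27. IFI27L1 differed between T47D-PA6 and T47D-VC1 by 0.40 within slide 1 and 0.43 within slide 3, and IFI27L2 by 0.27 and 0.22. T47D-PA5 against T47D-VC1 gave -0.12 for IFI27L2 within slide 1 and 0.29 and 0.23 within slides 2 and 3. As log2 lower bounds over T47D-VC1, IFI44 in T47D-PA6 gave 5.68 within slide 1 and 7.99 within slide 3, and in T47D-PA5 0.91, 3.02 and 3.23 within slides 1, 2 and 3. For IFI44L in T47D-PA6 slide 1 gave no bound, and slide 3 gave 3.75 over T47D-VC1 and 3.69 over T47D-PA5.

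A probe entered the test if some line had it well above background on all 3 arrays, which held for 5 of the 6 members, all but IFI44L. IFI44 qualified only through T47D-PA5 and T47D-PA6, where it was high. Since the members were selected on the differences between these lines, no count of calls among them is given. The comparisons with T47D-VC1 share its 3 arrays.

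Of 10 genes that carry or restrain the interferon signal, 6 rose in T47D-PA6 compared with T47D-VC1 and 0 fell, in limma with Benjamini-Hochberg adjustment over all 20092 tested genes at 0.05. Of all genes 4.69% were called higher there and 5.35% lower. The median log2 difference of the 10 was 1.03, and that of all genes was -0.03. Among the transcription factors, IRF9, the DNA-binding subunit of the complex with STAT2, went from a mean of 194 in T47D-VC1 to 1730 (log2 difference 3.16 ± 0.25, SE; adjusted p = 5e-04 in limma). IRF7, which amplifies interferon production, went from 1420 to 11400 (3 ± 0.27; adjusted p = 0.00072 in limma), and STAT2 from 4850 to 11400 (1.23 ± 0.20; adjusted p = 0.0081 in limma). IRF1, another activator of interferon-responsive promoters, differed by 1.48 ± 0.24 (adjusted p = 0.0090 in limma). Of the feedback genes, USP18, which blocks the receptor, rose by 1.87 ± 0.11 (adjusted p = 0.00025 in limma) and SOCS1, an inhibitor of the kinases, by 0.83 ± 0.19 (adjusted p = 0.032 in limma). The SOCS1 call was lost on leaving out replicate 2 or 3 of any line (adjusted p 0.057 to 0.12 in limma), and it was made in 11 of 22 alternative settings. It was lost with the slide as a block too, where the log2 difference of SOCS1 was 0.76 (adjusted p = 0.063 in limma). With normexp background correction its log2 difference was 0.29 (adjusted p = 0.077 in limma). The receptor chains IFNAR1 and IFNAR2 and the kinases JAK1 and TYK2 did not pass, with log2 differences of 0.05, 0.35, -0.42 and -0.18. JAK1 was called lower in 3 of 22 alternative settings, without T47D-PA5 replicate 1, with the scan run as a block and in replicates 2 and 3 alone.

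In T47D-PA5, 3 of the 10 rose over T47D-VC1 and 0 fell, with a median log2 difference of 0.47, while 1.37% of all genes were called higher and 0.299% lower. They were IRF9 (1.99 ± 0.25, SE; adjusted p = 0.0089 in limma), IRF7 (1.53 ± 0.27; adjusted p = 0.033) and USP18 (0.70 ± 0.11; adjusted p = 0.025). This count depended on single arrays. It was 0 without T47D-VC1 replicate 3, which all 3 calls needed, and 1 (IRF9) without T47D-VC1 replicate 2 or replicate 2 or 3 of T47D-PA5 or T47D-PA6. The IRF7 call was lost without T47D-VC1 replicate 1 as well. IFNAR2, a receptor chain, lay close to the threshold at 0.62 ± 0.12 (adjusted p = 0.052 in limma), with 0.032 to 0.19 over 22 alternative settings and under 0.05 in 4 of them. Between T47D-PA6 and T47D-PA5, 5 of the 10 were higher in T47D-PA6 and 0 lower, with a median of 0.56, and of all genes 3.65% were higher and 6.07% lower. USP18 differed by 1.18 ± 0.11 (adjusted p = 0.0018 in limma), IRF7 by 1.47 ± 0.27 (0.014), IRF9 by 1.17 ± 0.25 (0.025), IRF1 by 1.12 ± 0.24 (0.025) and STAT2 by 0.82 ± 0.20 (0.036). That count was 3 without T47D-PA5 replicate 3 and 1 (USP18) without T47D-PA6 replicate 2 or 3. IRF1 lost its call without T47D-PA5 replicate 1 or 2 too, and STAT2 without T47D-VC1 replicate 2 or 3 and with the slide as a block. The IRF9 call was lost when its tested probes were averaged (log2 difference 0.90, adjusted p = 0.11 in limma), and with no filter 1 of the 10 was called.

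**Figure D3:**
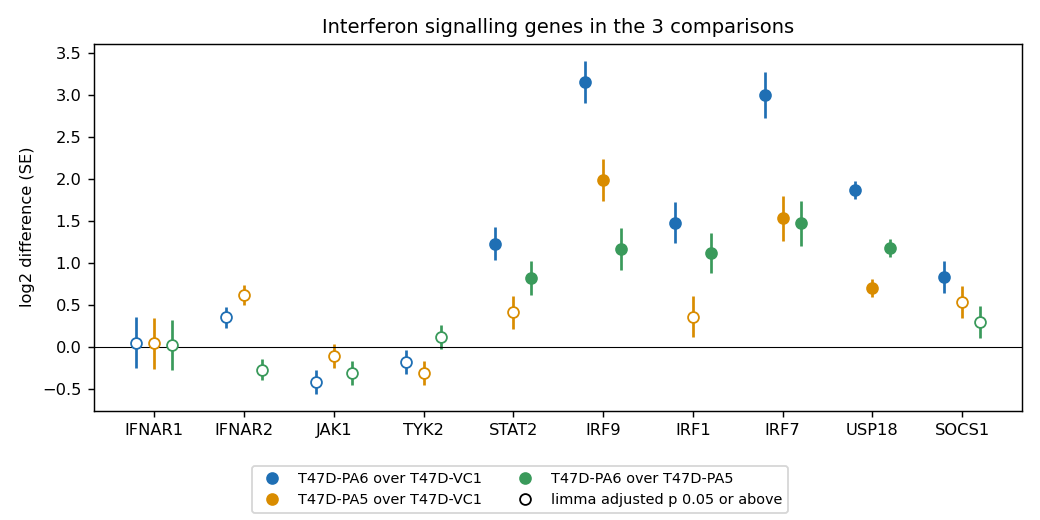
Log2 difference with its standard error for the 10 interferon signalling genes in the 3 comparisons, filled where the limma adjusted p-value was under 0.05. IRF9 and IRF7 show the largest differences over T47D-VC1, 3.16 and 3 in T47D-PA6, and the receptor chains and kinases are open markers, from -0.42 (JAK1 in T47D-PA6 over T47D-VC1) to 0.62 (IFNAR2 in T47D-PA5 over T47D-VC1).

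Of the genes for described partners of the members, 0 were called in the main limma fit, which had no block, and FKBP5 lay close to the threshold. HSPA5, the endoplasmic reticulum chaperone that holds IFI6, had mean signals of 3070, 3000 and 4000 across T47D-VC1, T47D-PA5 and T47D-PA6, with a log2 difference of 0.38 ± 0.18 (SE) between T47D-PA6 and T47D-VC1 (adjusted p = 0.22 in limma). FKBP5, the partner of IFI44 and IFI44L, read 726, 1150 and 839. Its difference of 0.66 ± 0.13 between T47D-PA5 and T47D-VC1 gave an adjusted p of 0.052 in limma. This ran from 0.0037 to 0.2 over 22 alternative settings and was under 0.05 in 9 of them. Among these, FKBP5 was called with the slide, scan run or replicate number as a block (adjusted p 0.014, 0.0039 and 0.017 in limma). Between T47D-PA6 and T47D-PA5 it differed by -0.45 ± 0.13 (adjusted p = 0.073 in limma), and with replicate number as a block, which pairs these arrays, it was called lower in T47D-PA6 (adjusted p = 0.021 in limma). It was called there in 5 of 22 alternative settings. SKP2, a ubiquitin ligase subunit described as a partner of IFI27, read 132, 169 and 134. NR4A1, a nuclear receptor that IFI27 binds, was not tested because it was not well above background on every array of any line. Of the 3 tested partners, the count at an unadjusted p under 0.05 in limma was 0 for T47D-PA6 over T47D-VC1 and 1 in each of the other comparisons. Of all genes 26.6% were at such a p for T47D-PA6 over T47D-VC1, 15.6% for T47D-PA5 over T47D-VC1 and 24.9% for T47D-PA6 over T47D-PA5.

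Of 9 genes of the mitochondrial apoptosis pathway, on which IFI6 and IFI27 act in opposite directions, 8 were tested, all but BCL2. None was called over T47D-VC1 in T47D-PA6 or T47D-PA5 in limma, with 0 and 2 genes at an unadjusted p under 0.05 (26.6% and 15.6% of all genes) and median log2 differences of -0.01 and -0.01. Between T47D-PA6 and T47D-PA5, 1 of the 8 was called lower and 0 higher in limma (6.07% and 3.65% of all genes). At an unadjusted p under 0.05 in limma there were 3 of the 8 (24.9% of all genes), and their list had a median of 0.06. The called gene was MCL1, a protector of mitochondria, with means of 1290 in T47D-PA6 and 1990 in T47D-PA5 (log2 difference -0.63 ± 0.14, SE; adjusted p = 0.029 in limma). With replicate number as a block the partner and apoptosis lists held 2 lower genes, MCL1 and FKBP5, and 2428 of all 20092 genes were called. The MCL1 call was lost without any of the T47D-PA6 arrays or T47D-PA5 replicate 2 or 3, and with no filter. The count over the partner and apoptosis lists was then 0, except without T47D-PA6 replicate 1. The pore-forming BAX and BAK1 differed from T47D-VC1 by 0.20 ± 0.20 and 0.16 ± 0.11 in T47D-PA6, and the initiator caspase CASP9 by -0.01 ± 0.09.

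The members lie at 3 loci, IFI6 alone, IFI44L beside IFI44, and IFI27L1, IFI27 and IFI27L2 in a row. Their 5 nearest protein-coding genes on each side, 30 in all by the order in RefSeq, included 20 tested genes. In limma, 1 of the 20 was higher and 2 were lower in T47D-PA6 than in T47D-VC1, 0 were called in T47D-PA5 (2 at an unadjusted p under 0.05, as were 15.6% of all genes), and 1 was higher and 3 were lower in T47D-PA6 than in T47D-PA5. Of all genes 4.69%, 1.37% and 3.65% were called higher and 5.35%, 0.299% and 6.07% lower in these comparisons. Median log2 differences were -0.05, -0.01 and 0.00, and over all genes they were -0.03, -0.03 and 0.00.

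The genes next to IFI27 and its paralogs, DDX24 on the side of IFI27L1 and PPP4R4 on that of IFI27L2, differed between T47D-PA6 and T47D-VC1 by -0.01 ± 0.10 (SE) and -0.34 ± 0.15 on the log2 scale, and 0 of the 6 tested neighbors there were called. Beside IFI6, FGR and FAM76A differed by 0.42 ± 0.31 and -0.14 ± 0.11. FGR was well above background on only 2 T47D-VC1 and 2 T47D-PA6 arrays, so its difference rests partly on background. CD164L2, the fifth gene away, was the called one, at 0.67 ± 0.13 (adjusted p = 0.016 in limma). The CD164L2 call was lost without T47D-VC1 replicate 3 (adjusted p = 0.068 in limma) and without T47D-PA6 replicate 2 or 3 (0.059 each). At the IFI44L and IFI44 locus the adjacent genes PTGFR and ADGRL4 were not tested. Farther on the IFI44 side, ADGRL2, an adhesion receptor, read 227, 219 and 41.3 across T47D-VC1, T47D-PA5 and T47D-PA6, a log2 difference of -2.46 ± 0.26 for T47D-PA6 over T47D-VC1 (adjusted p = 0.0013 in limma). TTLL7 was lower in T47D-PA6 as well, at -0.82 ± 0.18 (adjusted p = 0.028 in limma). Over T47D-PA5, ADGRL2, TTLL7 and PRKACB were lower in T47D-PA6 by limma and CD164L2 was higher, with log2 differences of -2.40, -0.83, -0.74 and 0.48. The PRKACB call depended on the probe, with -0.26 (adjusted p = 0.21 in limma) for the mean of its tested probes, and it was made in 11 of 22 alternative settings. With replicate number as a block PRKACB was also called lower over T47D-VC1, at -0.54 (adjusted p = 0.015 in limma). Without T47D-VC1 replicate 3, T47D-PA6 replicate 2 or T47D-PA6 replicate 3 the count over T47D-VC1 was 1, and TTLL7 also lost its call without T47D-PA6 replicate 1, T47D-VC1 replicate 2 or T47D-PA5 replicate 2 or 3, and with no filter. Over T47D-PA5 the count was 2 without T47D-VC1 replicate 2 or 3, and 1 without any of the T47D-PA5 arrays or T47D-PA6 replicate 2 or 3, and CD164L2 lost its call without any 1 of the 9 arrays and with replicate number as a block, when the count was 3.

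**Figure D4:**
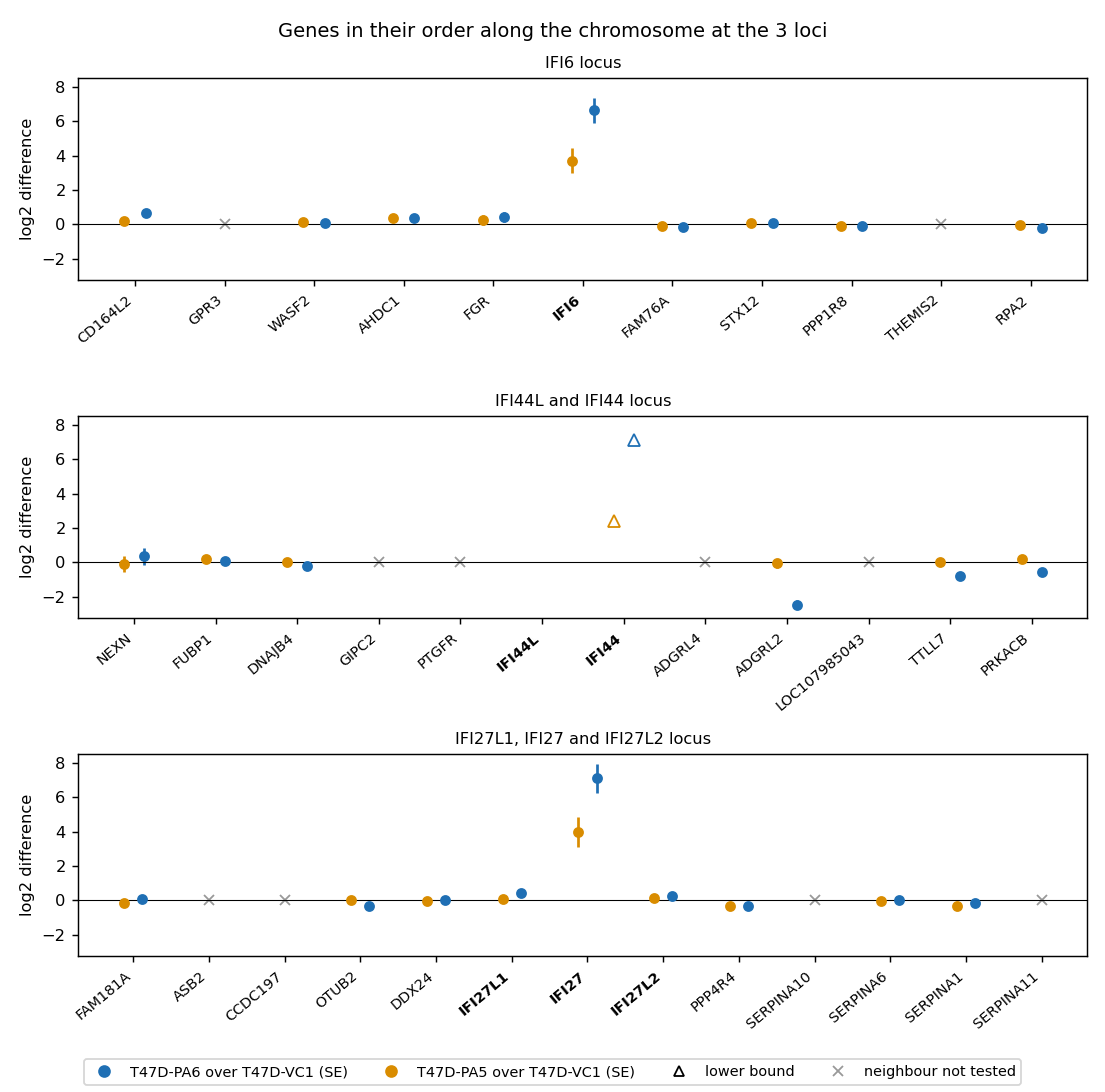
Log2 difference with its standard error for the members (bold names) and their neighbors, placed in their order along the chromosome with no scale of distance, for T47D-PA6 and T47D-PA5 over T47D-VC1. Triangles are lower bounds, crosses are neighbors that were not tested, and IFI44L has no marker. IFI27, at 7.09 in T47D-PA6, stands between IFI27L1 at 0.41 and IFI27L2 at 0.23.

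The pattern over the 9 arrays was compared between genes by the root mean square difference of log2 signals after each gene's mean was subtracted. Between members it was 0.42 for IFI6 and IFI27, 0.16 for IFI27L1 and IFI27L2, 1.20 for IFI6 and IFI44 and 1.14 for IFI27 and IFI44. From IFI27L1 and IFI27L2 it was larger, 2.65 and 2.69 for IFI6, 2.87 and 2.9 for IFI27, and 3.56 and 3.62 for IFI44. Among the 20087 other tested genes, those nearest to IFI6 were OAS1 (0.27), MX1 (0.37), IFIT1 (0.45), ISG15 (0.52) and IFIT3 (0.76), and the median over all of them was 2.83. The same 5 genes were nearest to IFI27, led by OAS1 at 0.46 and ISG15 at 0.63. The genes nearest to IFI44 were OAS1 (1.05), ISG15 (1.16), RSAD2 (1.25), IFIT3 (1.39) and IFIT1 (1.41). The medians over all genes were 3.05 for IFI27 and 3.74 for IFI44. OAS1, which encodes an enzyme that senses double-stranded RNA, read 85.2, 431 and 424 in T47D-PA5 and 1270, 2360 and 2220 in T47D-PA6, with the same low replicate 1 in T47D-PA5.

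IFI44L was not well above background on 7 of the 9 arrays, so its distances would compare mostly background values and are not given. The distances of IFI44 also use its 3 T47D-VC1 arrays at background. OAS1 was well above background on 1 T47D-VC1 array and RSAD2 on 0. With signals scaled to the 75th percentile in place of quantile normalization, all 5 nearest genes were the same for IFI6 and IFI44, and 4 of 5 for IFI27.

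**Figure D5:**
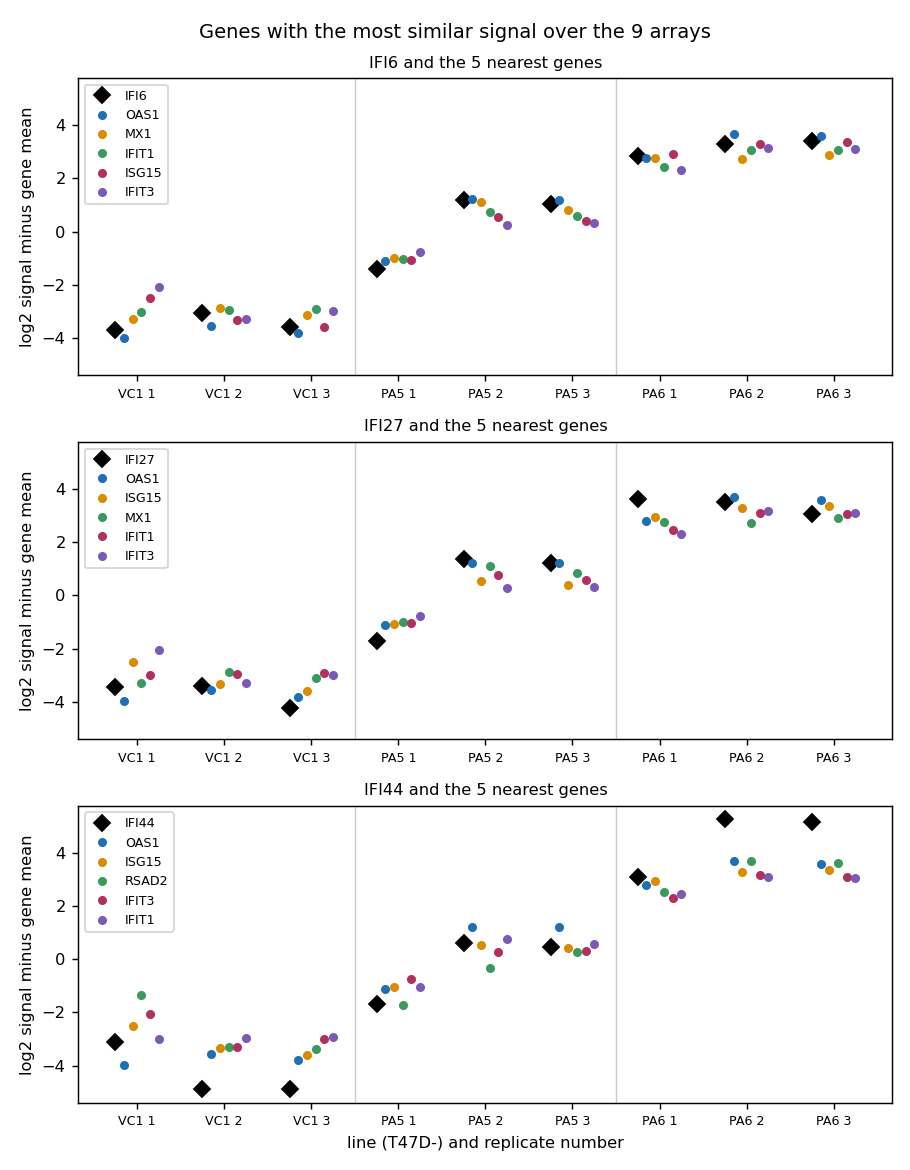
Log2 signal minus the mean of the gene over the 9 arrays, for 3 members (black diamonds) and the 5 genes nearest to each (colored circles), by line and replicate number. The genes shown were chosen for their nearness to the member, so the likeness in each panel follows from the choice.

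Markers of other cell types are given because their signal could move with that of the members. Of 5 leukocyte markers, CD3E, CSF1R and CLEC4C were well above background on 0 arrays, and CD14 and PTPRC on all 9. The probe of CD14, a monocyte receptor, gave means of 47.8, 115 and 167 across T47D-VC1, T47D-PA5 and T47D-PA6. The summed signal of the 5 probes, whose levels cannot be compared as amounts, was 88.2, 79.1 and 79.4 on the T47D-VC1 arrays, 144, 155 and 171 on the T47D-PA5 arrays and 145, 236 and 252 on the T47D-PA6 arrays. The line order of this sum came from CD14, since PTPRC, a marker of all leukocytes, had means of 20.3, 20.8 and 18.0 and the other 3 were at background. The part of CD14-expressing cells in the members' values was not tested. Of the fibroblast markers COL1A1 was well above background on all 9 arrays, with means of 347, 311 and 246, PDGFRB on 2 and COL1A2 on 0. Of the endothelial markers CDH5 and VWF were so on all 9 arrays, with means of at most 34.7, and PECAM1 on 0.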

How the data were processed

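The authors deposited, for each array, Feature Extraction spot intensity values that were background-subtracted and not normalized between arrays, and quantile-normalized intensity values for all arrays together. The file headers name Feature Extraction 10.7.1.1, and the submitters' processing notes name Agilent Feature Extraction 9.5.1.1. The study's methods name quantile normalization, 50 ng of total RNA and a low-input labeling kit.

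Of 62976 spots, 60901 were not controls and read 58201 probes. Spots marked as outliers, 46 to 117 on an array, were dropped, log2 values of repeated spots were averaged, and quantile normalization followed. Symbols matched 31127 probes to RefSeq genes, accessions 3343 and synonyms 496, and 23235 kept the name in the files. Testing kept 26155 probes of 20092 genes, each gene read from its brightest tested probe. Differences came from a single limma fit over 9 arrays (limma 3.58.1 with data.table version 1.17.8 under R 4.3.3) with Benjamini-Hochberg adjustment, and a simulated data set was used to try the fit. With 3 arrays per line, exact permutation p-values cannot go below 0.1, and the number of arrays limits the precision.

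The members and lists were chosen with earlier results of these data known. Genes named are the members, the lists of interferon signalling, partner, apoptosis, neighboring and marker genes, and the 5 genes nearest in pattern to each member that differed more than 2-fold between lines, except IFI44L, which was mostly at background. CYCS, BID, BCL2L1 and APAF1 completed the apoptosis list. Results for some genes are not reported here.

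Arrays with the same replicate number deviated together from their line means. Correlations over genes were 0.337, 0.132 and 0.242 for replicates 1, 2 and 3 of T47D-VC1 and T47D-PA6, 0.273, 0.166 and 0.168 for T47D-PA5 and T47D-PA6, and 0.210, 0.0995 and 0.124 for T47D-VC1 and T47D-PA5. The numbers come from the sample titles, and by a minimum of 0.1 they pair the arrays in the first 2 comparisons only. Alternatives tried were other scalings, filters, blocks and tests, and each array left out.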

Additional observations from a re-analysis of the deposited data

How the results depend on the processing

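The alternatives were 75th percentile scaling, normexp background correction, the authors' table, other filters, blocks for slide, scan run and replicate number, each array left out, an intensity trend, the 2 compared lines alone, the mean of a gene's tested probes, an unpaired t-test for each gene, 3 neighbors on each side, single slides, and, chosen after seeing the data, replicates 2 and 3 alone. Comparisons are given in the order T47D-PA6 over T47D-VC1 (A), T47D-PA5 over T47D-VC1 (B) and T47D-PA6 over T47D-PA5 (C). Each member has 1 probe, so the filters and other probes could not move its values. The cause of the changes below was not tested, apart from the number of genes or arrays that a setting itself changes.

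Limma called 2017, 335 and 1953 genes. The counts were 1286, 204 and 1263 with no filter, 3941, 1061 and 3577 with the scan run as a block, 432, 39 and 789 by the t-test after adjustment, and 7476, 4312 and 7151 in replicates 2 and 3 alone. The slide block gave 609 in B, and the 2 compared lines alone gave 1193 in A. With the replicate block they were 2621, 490 and 2428, within 1.5 times of the counts without it, and that block gave 6, 3 and 5 interferon signalling genes and 4, 0 and 3 neighbors. Leaving out 1 array gave 698 (without T47D-PA6 replicate 3) to 2771 (without T47D-PA6 replicate 1), 100 (without T47D-PA5 replicate 3) to 593 (without T47D-PA6 replicate 1), and 713 (without T47D-PA6 replicate 3) to 2963 genes (without T47D-PA6 replicate 1).

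Of the interferon signalling genes, with 6, 3 and 5 called, the count in B was 1 with the 2 compared lines alone, 0 by the t-test and 7 in replicates 2 and 3 alone. In C it was 1 with no filter, 2 with the compared lines alone and 1 by the t-test. Leaving out 1 array gave 5 to 7, 0 to 4 and 1 to 5. JAK1 was called lower in A without T47D-PA5 replicate 1 (with 6 higher), with the scan run as a block (6 higher) and in replicates 2 and 3 alone (7 higher), and in C without T47D-PA5 replicate 1 (4 higher) and in replicates 2 and 3 alone (6 higher). Of the partner and apoptosis genes, with 0, 0 and 1 called, 1 and 2 were called in B and C with normexp and with the slide, scan run or replicate block, 1 in B with the strict filter and with a trend, 0 in C with no filter and by the t-test, and 5, 2 and 4 in replicates 2 and 3 alone. Leaving out 1 array gave 0 to 1 in B and in C. Of the neighbors, with 3, 0 and 4 called, the count in C was 1 with no filter and 2 with the compared lines alone, those in A and C were 1 and 1 by the t-test and with 3 neighbors on each side, and replicates 2 and 3 alone gave 8 and 2 in A and B. Leaving out 1 array gave 1 to 4, 0 to 1 and 1 to 4.

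The members' differences between T47D-PA6 and T47D-VC1 stayed between 6.42 and 6.94 for IFI6, 6.82 and 7.51 for IFI27, 0.36 and 0.48 for IFI27L1 and 0.19 and 0.27 for IFI27L2 on the log2 scale over 18 settings each. With normexp, which lifts low signals, the bounds of IFI44 fell to 4.79 and 0.97 over T47D-VC1 from 7.10 and 2.39. Its log2 difference between T47D-PA6 and T47D-PA5 fell to 3.82 from 4.71. Within slide 1 the bounds of IFI44 were 5.68 and 0.91. IFI44L gave no value over all arrays. Within that slide T47D-PA5 differed from T47D-VC1 by 2.30 for IFI6, 1.73 for IFI27, 0.00 for IFI27L1 and -0.12 for IFI27L2, and T47D-PA6 from T47D-PA5 by 4.24 for IFI6, 5.34 for IFI27 and 0.39 for IFI27L2. Within slide 3 T47D-PA5 differed from T47D-VC1 by 4.61 for IFI6 and 5.44 for IFI27. Replicates 2 and 3 alone gave 5.09 for IFI27 in T47D-PA5 over T47D-VC1 and 2 for IFI27 in T47D-PA6 over T47D-PA5. Signal over background limits IFI44 in T47D-VC1 and IFI44L in all lines.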
